A study of Mus musculus with 6 samples.

Results

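The set described here holds 37 genes of glycolysis, of lactate formation and export, and of the pyruvate dehydrogenase step, chosen by name as the enzymes, transporters and regulatory kinases of these routes. Of the 37, 34 had at least 1 probe set naming that gene alone. Gpi1, Eno1 and Pfkfb1 had none in the annotation used and were not analysed here. The 34 genes are part of 18194 genes that could be named on the arrays. Of the 34, 30 had a mean signal above the low value filter of 2.04 and were tested, among 12565 genes tested in all. Aldoc, Eno2, Pdk2 and Pdk4 lay below that filter.

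The samples were 6 one-colour arrays of mouse leukemias, 3 from wild-type (WT) and 3 from Sh2b3-/- (KO) donor marrow. The marrow came from donors 8 weeks old and was depleted of lineage-positive cells. Both groups carried the same oncogene, MigR1-ΔE-Notch1, a retrovirus that encodes an activated NOTCH1 without its extracellular part and marks cells with GFP. Infected cells, 50000 Lin-Sca1+ cells per recipient, were injected into irradiated C57BL6 mice. The difference between the groups that the labels name is the donor's Sh2b3 genotype. The strain C57BL6 is given for the wild-type group, and none is given for the knockout donors. The RNA was from whole tumours, in which recipient cells can remain, and 10 ng per sample was amplified before labelling. The labels name biological replicates and also a triplicate RNA isolation, and do not say which mouse an array came from, so p-values cover the spread among arrays only, part of which may be technical.

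Glycolysis turns glucose into pyruvate with a small yield of ATP and NADH. Lactate dehydrogenase, a tetramer of A and B subunits, interconverts pyruvate and lactate and restores NAD+, and monocarboxylate transporters carry lactate across the membrane. The pyruvate dehydrogenase complex instead turns pyruvate into acetyl-CoA for the citric acid cycle, and its kinases (PDKs) switch it off by phosphorylation. Dividing T cells and T cell leukemias are known for high glucose uptake, and MYC and hypoxia-inducible factor are known regulators of many of these genes. Sh2b3 codes for the adaptor LNK, a brake on cytokine receptor and JAK signalling, and the comparison asks which transcripts differ in NOTCH1-driven leukemia without it.

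Promoters of 4 genes that the results turn on are shown for their motifs of the regulators named above: the Ldha and Ldhb subunits of lactate dehydrogenase, Pkm and Pdha1. Each is the 250 bases before an annotated start in RefSeq, build GRCm38.p6, 5′ to 3′ on the gene's strand. Capitals mark ACGTG on either strand, a form of the core motif of hypoxia-inducible factor, including the MYC E-box CACGTG, which contains it. The other form of that core, GCGTG, is not marked. Ldha lies at chr7:46845554-46845803 (plus strand), Ldhb at chr6:142507958-142508207 (minus strand), Pkm at chr9:59656977-59657226 (plus strand, the second of 2 listed starts) and Pdha1 at chrX:160138431-160138680 (minus strand).
Ldha: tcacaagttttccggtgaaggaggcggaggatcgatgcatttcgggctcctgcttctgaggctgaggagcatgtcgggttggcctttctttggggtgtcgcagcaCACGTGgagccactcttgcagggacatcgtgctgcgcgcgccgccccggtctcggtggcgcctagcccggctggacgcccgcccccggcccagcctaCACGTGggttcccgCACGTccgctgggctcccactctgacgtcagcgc
Ldhb: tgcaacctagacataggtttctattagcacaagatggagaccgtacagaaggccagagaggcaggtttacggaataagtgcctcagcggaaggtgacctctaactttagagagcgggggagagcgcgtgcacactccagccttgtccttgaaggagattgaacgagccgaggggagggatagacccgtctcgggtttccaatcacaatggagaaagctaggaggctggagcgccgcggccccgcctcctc
Pkm: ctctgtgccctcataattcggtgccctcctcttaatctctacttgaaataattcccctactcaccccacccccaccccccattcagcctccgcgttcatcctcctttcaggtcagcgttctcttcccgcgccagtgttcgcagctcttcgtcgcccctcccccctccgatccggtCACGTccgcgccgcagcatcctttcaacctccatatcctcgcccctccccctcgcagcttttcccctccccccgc
Pdha1: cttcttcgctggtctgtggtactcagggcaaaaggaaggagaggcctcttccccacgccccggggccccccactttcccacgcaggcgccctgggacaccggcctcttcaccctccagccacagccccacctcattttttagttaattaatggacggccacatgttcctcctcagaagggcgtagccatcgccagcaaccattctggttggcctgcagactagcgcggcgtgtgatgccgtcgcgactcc

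The Ldha window holds CACGTG 2 times and a further CACGT, and the Pkm window holds 1 CACGT. The Ldhb and Pdha1 windows hold no CACGTG and no ACGTG on either strand. Both do hold GCGTG, a form of the hypoxia-inducible factor core that was not searched for or counted. Ldha and Pkm each have another listed start, and its window, not shown, holds no CACGTG and no ACGTG on either strand. Of the 34 genes with a probe set, 33 had a promoter entry, with 47 windows in all (Slc2a3 had none). CACGTG stood in 6 of these 47 windows (12.8%), against 6.02% of all 32851 windows. ACGTG on either strand stood in 20 of 47 windows (42.6%), against 16.6% of all windows. Windows of one gene can overlap, and a match is a run of letters and not a bound site.

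Most enzymes of the route were read clearly in these leukemias. On the log2 scale of the arrays, where unexpressed genes lie near 2, 20 of the 34 genes (58.8%) were at least 5 on all 6 arrays, against 33.6% of all genes. Another 10 (29.4%) were under 4 on every array, against 54.5% of all genes. The low ones were Slc16a3, Hk3, Pfkl, Aldoc, Pfkfb2, Pfkfb4, Pgam2, Eno2, Pdk2 and Pdk4. Hk2, Pfkfb3, Eno3 and Ldhb fell between these classes. A low signal can also come from a poor probe set, so low is a statement about these probe sets.

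**Figure D1:**
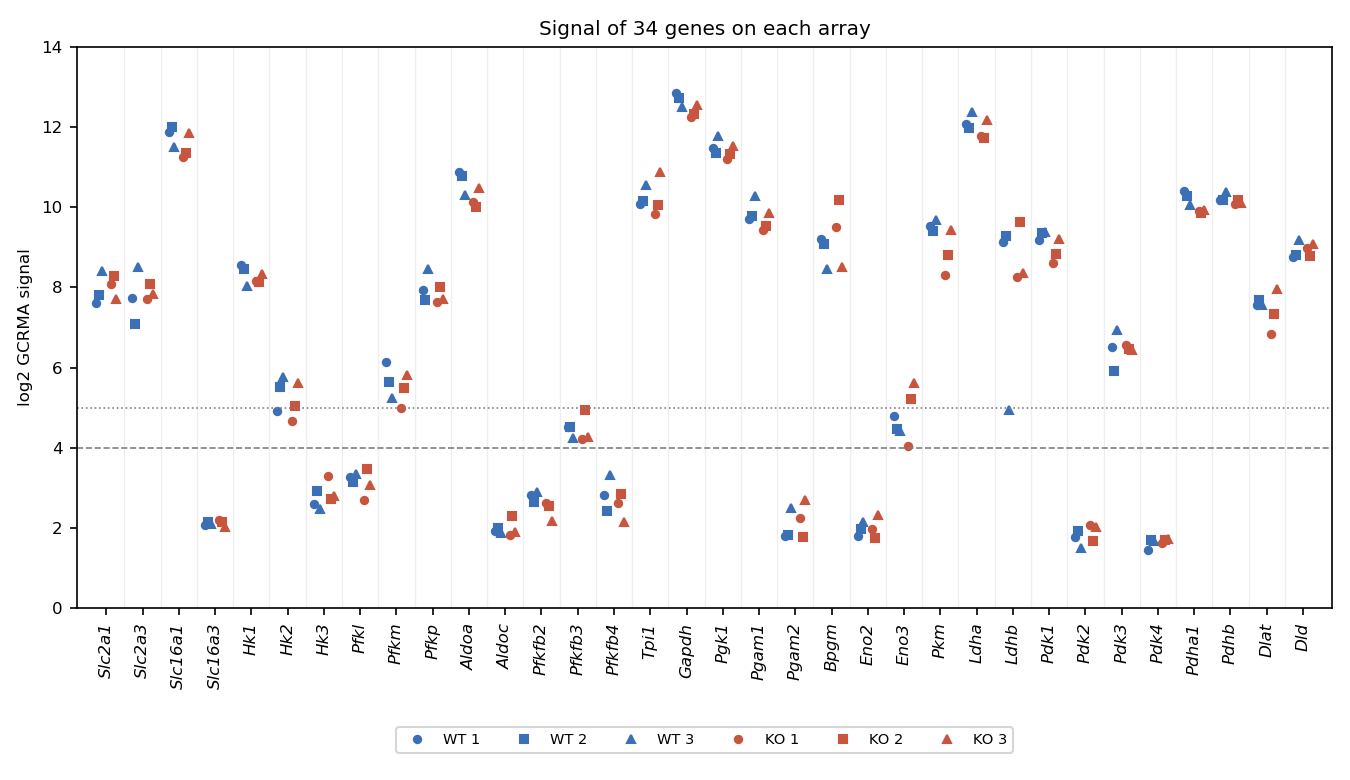
The log2 GCRMA signal of the 34 genes with a probe set is plotted on each of the 6 arrays, wild type in blue and knockout in red, with the lines at 4 and 5 that separate low from clearly read genes. Below 4 on every array are 10 genes, and a single Ldhb point, 4.95 on wild-type array 3, lies far from the others of that gene. Heights of different genes come from different probe sets and are not to be ranked.

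No gene of the set passed the test between knockout and wild type. In limma's fit over all 12565 genes, adjusted by Benjamini-Hochberg, 0 genes (0%) passed 0.05 in either direction, and the smallest adjusted p was 0.157. An unadjusted p under 0.05 was found for 982 genes (7.82%), of which 567 (4.51%) were lower in knockout and 415 (3.3%) higher. In the set, 5 of 30 had an unadjusted p under 0.05, and all 5 were lower: Pkm, Aldoa, Gapdh, Pdk1 and Pdha1. Of the 30, 19 had a lower mean in knockout (background 51.4% of all genes tested) and 11 a higher one, with a median log2 fold change of -0.18 against -0.01 over all genes. Among the 22 genes with a mean of at least 5, 16 were lower and the median was -0.23, while 60.2% of the 6726 genes with such a mean were lower, with a median of -0.07. Knockout and wild-type arrays were fully separated for 2 of the 30, Pdha1 and Pfkfb2, both lower by the probe set used (background 13.8% in either direction, 8.29% lower and 5.49% higher), so that count is no larger than the background share gives.

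**Figure D2:**
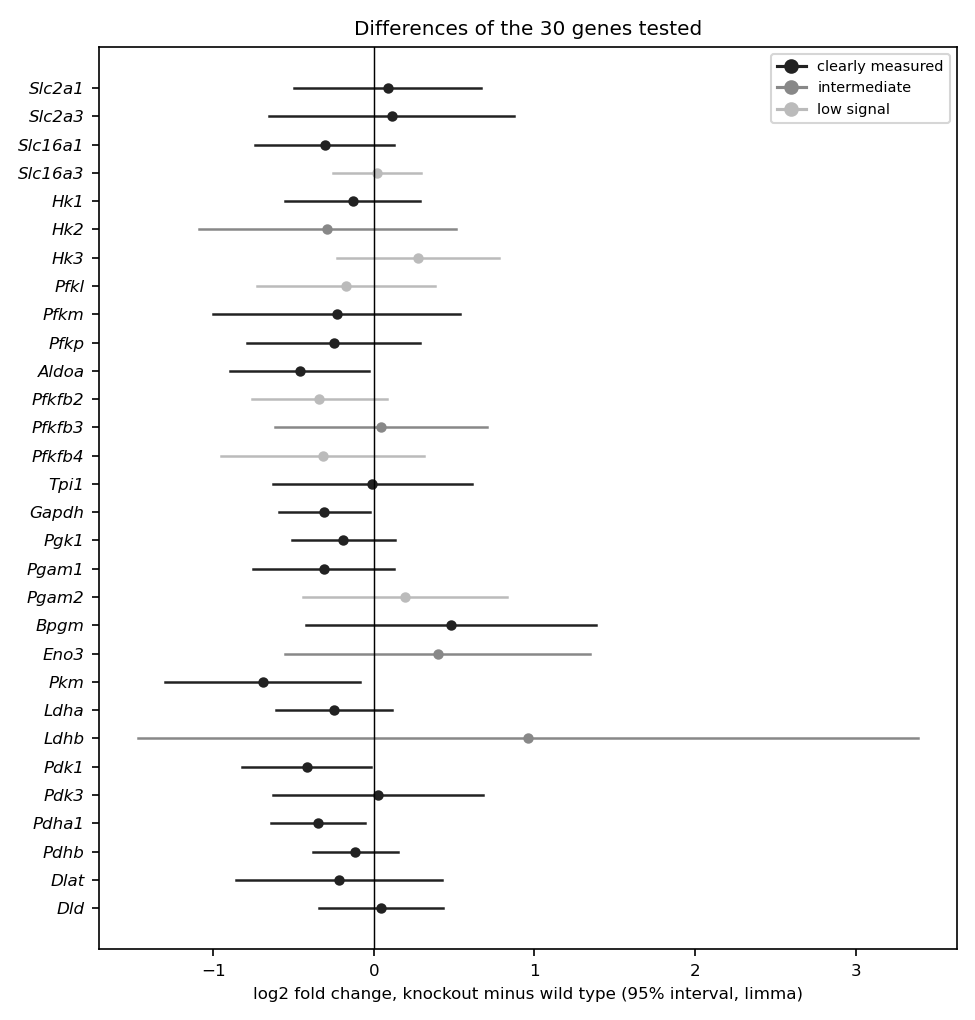
The log2 fold change, knockout minus wild type, of the 30 tested genes is drawn with its 95% interval from limma, shaded by signal class. The intervals of Pkm (-0.69), Aldoa (-0.46), Pdk1 (-0.42), Pdha1 (-0.35) and Gapdh (-0.31) lie below 0 before adjustment for 12565 tests, and that of Ldhb is the widest.

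The labels were checked on Sh2b3 itself, which read 4.25, 4.83 and 4.08 in wild type against 2.29, 2.24 and 2.29 in knockout, so that the log2 fold change was -2.11 (SE 0.247, limma adjusted p = 0.157, and 0.0206 without wild-type array 3). Wild-type arrays 1 and 2 were closer to each other than any other pair: the standard deviation of their difference was 0.234 over genes with a mean above 5, against 0.503 to 0.689 for the other 14 pairs. With those 2 arrays averaged into 1 sample, 23 of 30 genes of the set were lower (51.8% of all genes tested) and the median was -0.17. The T cell list was present, with 10 of 11 markers at least 5 on all arrays (Cd3d 12.13 to 12.63) and Cd4 at 2.23 to 4.63. Markers of other cells were read in part. Of 5 red cell genes, 4 were at least 5 on every array (Slc4a1, the anion exchanger, 10.70 to 12.09) and Hba-a1 was low. Of 9 myeloid genes, 4 were at least 5 on every array (S100a9 10.70 to 11.18), 3 lay between the classes, and Itgam and Elane were low. Of 6 B cell genes, Ms4a1 was at least 5 on every array (5.01 to 7.06), Cd79b (4.74 to 7.34) and Blnk (3.05 to 5.19) lay between, and Cd79a, Pax5 and Ebf1 were low, as were 6 of 7 skeletal muscle genes. In such bulk RNA, fewer cells of a type and less RNA per cell cannot be told apart.

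Among the transporters, the glucose carriers did not separate the groups. Slc2a1 encodes GLUT1, the basal glucose carrier, and read 7.60, 7.81 and 8.42 in wild type and 8.09, 8.28 and 7.72 in knockout. The groups overlapped fully, with means of 7.94 ± 0.43 and 8.03 ± 0.28 (SD, n = 3 each) and a log2 fold change of 0.09 (95% interval -0.50 to 0.67, limma adjusted p = 0.940). Slc2a3 encodes GLUT3, a carrier of high affinity, and read 7.73, 7.09 and 8.50 against 7.72, 8.09 and 7.84. Its wild-type arrays spanned more than its knockout arrays, which lay inside that span, and the difference was 0.11 (interval -0.65 to 0.87). A second well read probe set of each carrier gave a difference of the other sign, -0.33 for Slc2a1 and -0.27 for Slc2a3, so these data give neither a direction.

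Slc16a1 encodes MCT1, which carries lactate and pyruvate with a proton. It read 11.87, 12 and 11.50 in wild type and 11.25, 11.35 and 11.85 in knockout. Knockout arrays 1 and 2 lay below every wild-type array and knockout array 3 among them, and the difference of -0.31 (SE 0.188) had an adjusted p of 0.695 in limma. Slc16a3, the lactate exporter MCT4 that is known as a hypoxia target, read 2.03 to 2.19 on all 6 arrays. Of the lactate carriers in the set, MCT1 was therefore the one that its probe set read above the low range.

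On the stretch from glucose to triose phosphates, hexokinases trap glucose as glucose 6-phosphate. Hk1, the form known from most tissues, read 8.55, 8.47 and 8.03 in wild type and 8.17, 8.14 and 8.34 in knockout, a difference of -0.13. Hk2, the form known to be induced by growth signals, read 4.91, 5.51 and 5.77 against 4.67, 5.03 and 5.62, a difference of -0.29. Both overlapped between the groups. The Hk2 difference was -0.07 without knockout array 1 and -0.55 without knockout array 3, and that of Hk1 was -0.03 without wild-type array 1 and -0.29 without wild-type array 3. Hk3 was low at 2.47 to 3.29, and the balance of Hk1 to Hk2 within each array differed between the groups by 0.16 (two-sided exact permutation p = 0.8).

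Phosphofructokinase commits the sugar to glycolysis, and its 3 subunits differed in signal class. Pfkl, the liver form, was low at 2.69 to 3.46. A second low probe set of Pfkl read 3.24, 3.32 and 3.36 in wild type and 2.67, 2.65 and 2.84 in knockout (-0.59), without overlap. Another low one differed by -0.003. The platelet form Pfkp read 7.93, 7.68 and 8.47 in wild type and 7.63, 8.00 and 7.70 in knockout (-0.25, adjusted p = 0.786 in limma, and -0.028 without wild-type array 3). The muscle form Pfkm read 6.15, 5.64 and 5.23 against 5.0, 5.50 and 5.82 (-0.23). The 2 forms had overlapping groups, but their wild-type arrays went in different orders: array 3 was the highest for Pfkp and the lowest for Pfkm. The enzymes that set fructose 2,6-bisphosphate, the activator of phosphofructokinase, were read weakly. Pfkfb2 lay between 2.16 and 2.90 with a difference of -0.34, Pfkfb4 between 2.14 and 3.32, and Pfkfb3 between 4.21 and 4.93 with a difference of 0.04. The separation of the groups at Pfkfb2 thus lies in the range where this scale carries little information. A second low probe set of Pfkfb2 separated the groups the other way, by 0.23, and the mean of its 4 probe sets differed by -0.03.

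Aldolase splits fructose 1,6-bisphosphate into both triose phosphates. Aldoa read 10.89, 10.78 and 10.31 in wild type and 10.12, 10.00 and 10.47 in knockout. Knockout arrays 1 and 2 were below every wild-type array, and wild-type array 3 was the lowest of its group. The means were 10.66 ± 0.31 and 10.20 ± 0.24 (SD, n = 3 each), a log2 fold change of -0.46 (SE 0.188, limma unadjusted p = 0.038, adjusted p = 0.634). Its 5 well read probe sets all gave lower means in knockout, from -0.46 to -0.10. Aldoc, the brain form, was at 1.81 to 2.30.

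Of the 6 genes from triose phosphates to pyruvate with a mean of at least 5, 5 were lower in knockout and Bpgm was higher. Tpi1, triose phosphate isomerase, read 10.08, 10.16 and 10.56 against 9.83, 10.05 and 10.89, with a difference of -0.01 that was the smallest of the set. Gapdh, which makes NADH and 1,3-bisphosphoglycerate, read 12.85, 12.73 and 12.50 in wild type and 12.25, 12.34 and 12.56 in knockout. By the probe set used, its groups overlapped by 1 array, and the difference was -0.31 (SE 0.123, limma unadjusted p = 0.035, adjusted p = 0.634). Gapdh is measured here by the array's control probe sets along its transcript, and all 3 were lower, by -0.43 at the 5′ end, -0.39 in the middle and -0.31 at the 3′ end. The probe set used is that of the 3′ end. For the other 2, every knockout array lay below every wild-type array. Knockout read 11.04 to 11.41 against 11.55 to 11.76 at the 5′ end, and 11.28 to 11.52 against 11.69 to 11.89 in the middle. Because Gapdh serves as a control on many arrays, it also bears on RNA quality. Its 3′ minus 5′ signal was 1.21, 1.18 and 0.74 in wild type and 0.84, 1.30 and 1.34 in knockout. The same measure for actin was 1.36, 1.46 and 1.26 against 1.27, 1.69 and 1.75. In both, knockout arrays 2 and 3 lay above every wild-type array and knockout array 1 did not, and the part of RNA quality in these differences was not tested.

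Pgk1, which makes the first ATP of the route, read 11.48, 11.36 and 11.78 in wild type and 11.20, 11.33 and 11.52 in knockout, a difference of -0.19. Pgam1, phosphoglycerate mutase, read 9.70, 9.77 and 10.28 against 9.44, 9.52 and 9.85, a difference of -0.31 (limma adjusted p = 0.694). For both genes wild-type array 3 was the highest of all 6, and without it the differences were -0.07 for Pgk1 and -0.13 for Pgam1. The muscle form Pgam2 was low at 1.76 to 2.70. Of the enolases, Eno2 lay at 1.74 to 2.32, while Eno3, the muscle form, read 4.80, 4.46 and 4.42 against 4.04, 5.21 and 5.62. Eno3 had its lowest and its highest value in knockout, so its difference of 0.40 (SE 0.413) lay within the spread, and it was 0.065 without knockout array 3 and 0.855 without knockout array 1.

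Pkm encodes pyruvate kinase, which makes pyruvate and the last ATP of the route. It read 9.54, 9.42 and 9.67 in wild type and 8.31, 8.80 and 9.44 in knockout. The wild-type arrays lay close together, knockout array 1 was far below them, and knockout array 3 reached into their range. The means were 9.54 ± 0.13 and 8.85 ± 0.57 (SD, n = 3 each), and the log2 fold change of -0.69 (SE 0.264, interval -1.30 to -0.09) puts the knockout mean at 61.8% of wild type. This was the largest lower difference of the set and had an unadjusted p of 0.030 and an adjusted p of 0.634 in limma. Without knockout array 1 it was -0.42. Pkm has 1 probe set with its name alone, and its splice forms M1 and M2 were not analysed here.

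Bpgm makes 2,3-bisphosphoglycerate, which lowers the oxygen affinity of haemoglobin, and is best known from red cells. It read 9.21, 9.09 and 8.47 in wild type and 9.51, 10.18 and 8.52 in knockout, with means of 8.92 ± 0.40 and 9.40 ± 0.84 (SD, n = 3 each). The log2 fold change of 0.48 (SE 0.394, limma adjusted p = 0.760) was 0.09 without knockout array 2, the array with the highest Bpgm. The red cell genes Slc4a1, Alas2 and Epb42 were also highest on that array, and Klf1 on wild-type array 3. Alas2, the first enzyme of red cell haem synthesis, read 7.59, 7.17 and 7.03 in wild type and 7.30, 8.73 and 6.65 in knockout. Slc4a1 read 11.56, 11.90 and 11.69 against 11.54, 12.09 and 10.70, with knockout array 3 the lowest of all. Of the 8 red cell genes listed, 5 had a probe set, and their mean log2 level was 6.87 to 6.90 in wild type and 6.2 to 7.43 in knockout. Hba-a1 was low on every array at 1.55 to 1.76, and the part of red cells in the Bpgm values was not tested.

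**Figure D3:**
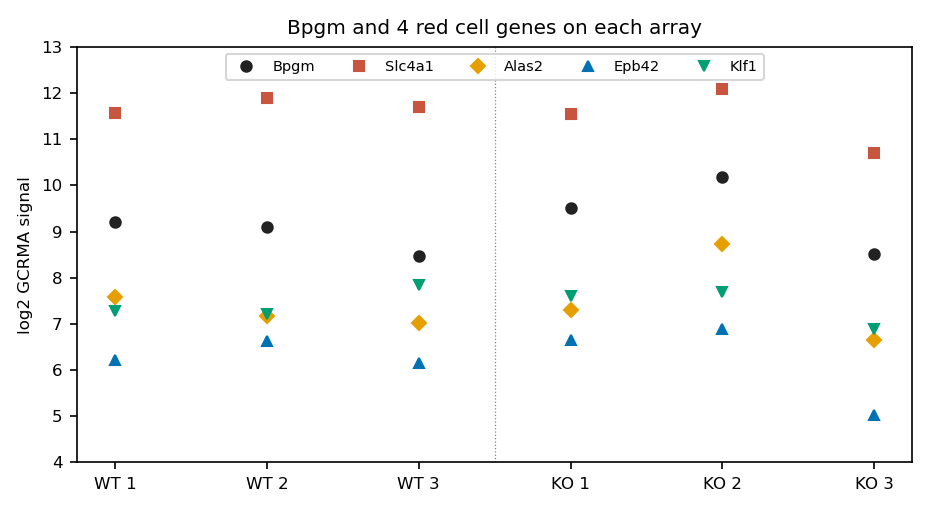
The log2 GCRMA signal of Bpgm and of the red cell genes Slc4a1, Alas2, Epb42 and Klf1 is plotted on each array, wild type to the left of the dotted line and knockout to the right. On knockout array 2, Bpgm (10.18), Slc4a1 (12.09) and Alas2 (8.73) have their highest values, and on knockout array 3, Slc4a1 (10.70) and Alas2 (6.65) have their lowest.

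The A subunit of lactate dehydrogenase, Ldha, read 12.08, 11.98 and 12.39 in wild type and 11.78, 11.73 and 12.19 in knockout. Knockout array 3 lay among the wild-type arrays and the other two knockout arrays below them, and the difference was -0.25 (SE 0.156, limma adjusted p = 0.701), or -0.13 without wild-type array 3. The B subunit, Ldhb, stood apart on a single array. It read 9.13, 9.29 and 4.95 in wild type and 8.25, 9.63 and 8.37 in knockout. Wild-type array 3 was thus about 19.2-fold below the mean of the other wild-type arrays, and below every knockout array by at least 3.3 on the log2 scale. All 4 probe sets of Ldhb showed it, with 4.59 to 4.97 on that array and 7.44 to 9.63 on the other 5. This gap was the largest downward gap of any of the 12565 genes on that array, and 2 genes (0.0159%) lay at least 3 below all other arrays there.

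With that array the Ldhb difference was 0.96 (SE 1.06, interval -1.47 to 3.39), and without it -0.46 (limma adjusted p = 0.748), so its direction rests on 1 array. The within-array difference of Ldha to Ldhb was lower in knockout by -1.21 with all arrays (two-sided exact permutation p = 0.7) and higher by 0.33 without wild-type array 3. No direction of the balance between the subunits can be read. In all, 4 isozyme pairs were compared in this way (Slc2a1 with Slc2a3, Hk1 with Hk2, Ldha with Ldhb, Pdk1 with Pdk3), each had an adjusted p of 0.9, and 3 against 3 arrays cannot give an exact p below 0.1. Wild-type array 3 had Ldha at 12.39, the highest of the 6 arrays.

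**Figure D4:**
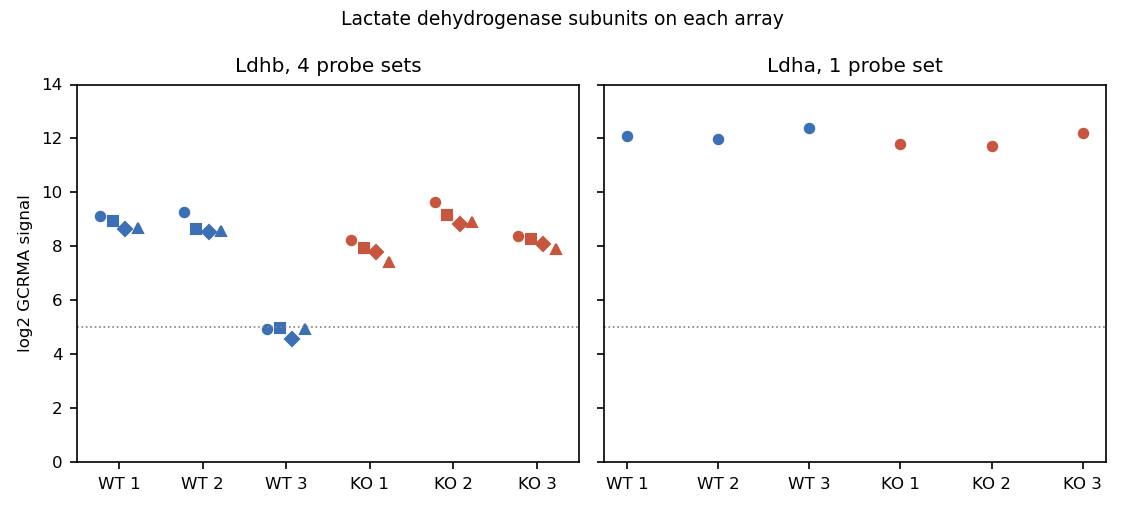
The log2 GCRMA signal of the 4 Ldhb probe sets, one symbol each, and of the 1 Ldha probe set is plotted on each array, with wild type in blue, knockout in red and a dotted line at 5. All 4 Ldhb probe sets drop to between 4.59 and 4.97 on wild-type array 3, where Ldha is at 12.39.

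Of the pyruvate dehydrogenase kinases, Pdk1, which inactivates the complex and is known as a target of hypoxia-inducible factor, read 9.18, 9.36 and 9.38 in wild type and 8.62, 8.84 and 9.20 in knockout. Knockout array 3 overlapped the lowest wild-type array and the other two knockout arrays lay below. The means were 9.31 ± 0.11 and 8.89 ± 0.29 (SD, n = 3 each), and the difference was -0.42 (SE 0.175, limma unadjusted p = 0.043, adjusted p = 0.638). Its 3 well read probe sets were all lower, from -0.58 to -0.15. Pdk3 read 6.52, 5.92 and 6.94 against 6.57, 6.45 and 6.43, with knockout inside the wild-type range. Pdk2 and Pdk4, the latter known to rise on fasting, lay at 1.49 to 2.08 and at 1.45 to 1.72. The balance of Pdk1 to Pdk3 differed by -0.44 (two-sided exact permutation p = 0.4).

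Within the pyruvate dehydrogenase complex itself, Pdha1 encodes the alpha subunit of the first enzyme, the part that the kinases phosphorylate. It read 10.41, 10.27 and 10.06 in wild type and 9.91, 9.86 and 9.92 in knockout. Every knockout array lay below every wild-type array, by 0.14 at the closest. The means were 10.25 ± 0.18 and 9.90 ± 0.03 (SD, n = 3 each), and the log2 fold change was -0.35 (SE 0.127, limma unadjusted p = 0.024, adjusted p = 0.634). A second Pdha1 probe set read 8.56, 8.21 and 8.76 against 8.27, 8.33 and 8.69, with a difference of -0.08 and overlapping groups. The separation is therefore a property of 1 of its 2 probe sets.

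By the probe sets used, the other subunits showed less. Pdhb, the beta subunit, read 10.17, 10.18 and 10.37 in wild type and 10.07, 10.19 and 10.11 in knockout (-0.12). A low second probe set of Pdhb read 2.97, 2.71 and 3.07 against 2.70, 2.41 and 2.48 (-0.39), without overlap. Dlat, the acetyltransferase core, read 7.56, 7.68 and 7.55 against 6.84, 7.33 and 7.96. Its knockout arrays surrounded the wild-type ones, and the difference of -0.22 lay within their spread. Dld, the dehydrogenase shared with other complexes, read 8.76, 8.80 and 9.18 against 8.99, 8.79 and 9.09 (0.04). Of the 11 genes with 2 or more probe sets of mean at least 5, 8 gave a single sign over them. Of all 44 probe sets of the set with such a mean, 32 were lower in knockout. Several of these read the same gene, and the share over all probe sets of that mean was not counted. Over all 6726 genes of that mean, 60.2% were lower.

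Array by array, the lower values came mainly from knockout arrays 1 and 2. Relative to each gene's wild-type mean, the median of the 22 genes with a mean of at least 5 was -0.38 on knockout array 1, -0.21 on array 2 and -0.03 on array 3, against -0.04, -0.05 and 0.13 on the wild-type arrays. Over all 6726 genes with such a mean the same medians were -0.09, -0.01 and -0.08 in knockout. On knockout array 1, 15 of the 22 genes lay below all 3 wild-type arrays (40.9% of all genes of that mean), on array 2 it was 11 (28.2%), and on array 3 it was 2 (39%). Knockout array 1 held the lowest of the 6 values for 12 of the 22 genes (28.7% of all genes), and wild-type array 3 the highest for 12 (23.7%). Without knockout array 1 the median of the 30 tested genes was -0.05, and without wild-type array 3 it was -0.10.

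Genes of dividing cells were also lowest on knockout array 1. The proliferation marker Mki67 read 12.02, 12.10 and 11.97 in wild type and 11.29, 12.24 and 12.08 in knockout. For the 5 of 6 listed dividing-cell genes with a probe set, all at least 5 on every array, the median against the wild-type mean stood at -0.44, 0.09 and 0.25 on knockout arrays 1 to 3, and their mean log2 level was 10.56 to 10.60 in wild type and 10.11 to 10.76 in knockout. The mean level of the 11 T cell markers was 10.48, 10.32 and 9.79 in wild type and 10.21, 10.12 and 9.67 in knockout. That of 6 B cell markers was 3.66, 3.38 and 3.8 in wild type and 4.29, 4.59 and 3.41 in knockout, so that these were highest on knockout arrays 1 and 2, where the set was lowest. All 6 B cell markers had a higher mean in knockout, beside 6042 of the 12565 genes tested, and none passed the test. Of the 6, 3 were low on every array. On knockout array 3, Cd79b (4.74) and Ms4a1 (5.01) lay below every wild-type array. The mean level of 9 myeloid markers was 5.73 to 6.33 in wild type and 5.98 to 6.36 in knockout. The part of these cell types in the differences of the set was not tested.

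**Figure D5:**
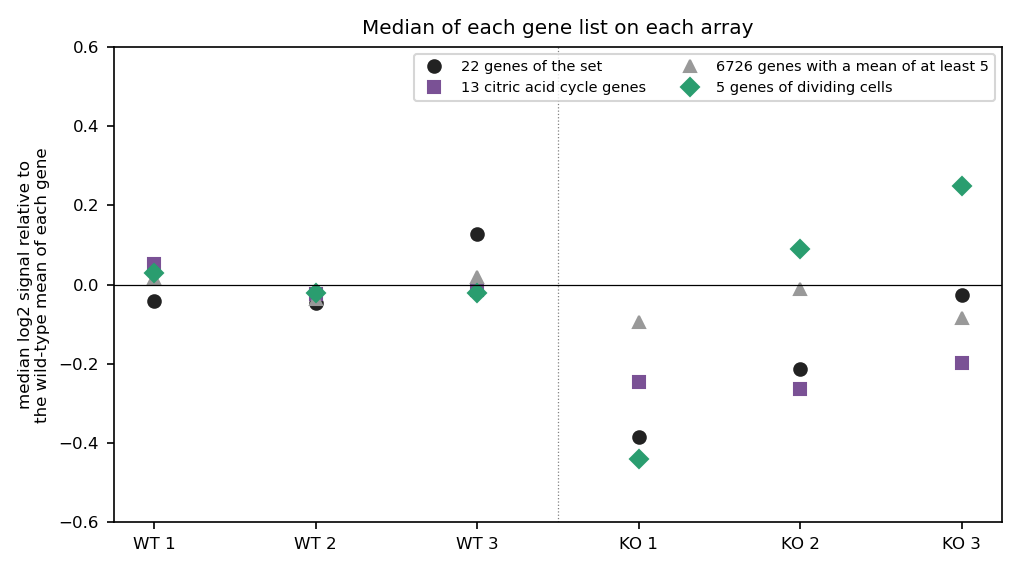
For each array, the median over genes of the log2 signal minus the gene's wild-type mean is plotted for the 22 genes of the set with a mean of at least 5, 13 citric acid cycle genes, 6726 genes with a mean of at least 5, and 5 genes of dividing cells. The set is at -0.38 and -0.21 on knockout arrays 1 and 2 and at -0.03 on array 3, whereas the citric acid cycle genes are at -0.25, -0.26 and -0.20.

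Neighbouring routes were counted from lists chosen with earlier results of these data known, so their counts are descriptions only. No member of any list passed the test in limma in either direction. The citric acid cycle, which burns the acetyl-CoA made by pyruvate dehydrogenase, was read by 13 genes, all at least 5 on every array. Of these, 11 were lower in knockout with a median of -0.19, and the groups did not overlap for 6, all lower (background 8.29% of all genes tested, and 10.6% of genes with a mean of at least 5). Mdh2, mitochondrial malate dehydrogenase, read 12.44, 12.45 and 12.49 in wild type and 12.15, 12.17 and 12.23 in knockout (-0.28, adjusted p = 0.629). Idh2, which makes mitochondrial NADPH, read 7.71, 7.56 and 7.65 against 6.92, 7.24 and 6.27 (-0.83). Ogdh, a subunit of the 2-oxoglutarate dehydrogenase complex, read 8.63, 8.73 and 8.37 against 7.80, 8.01 and 8.28 (-0.55). For these 3 genes every knockout array lay below every wild-type array, whereas Mdh1 and Sucla2 were higher by 0.03 and 0.06. With the mean of probe sets, the differences were -0.33 for Mdh2, -0.47 for Idh2 and -0.21 for Ogdh.

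Partners of pyruvate dehydrogenase had 7 genes tested, 6 of them lower, with a median of -0.17. Mpc1, a subunit of the mitochondrial pyruvate carrier, read 10.13, 10.06 and 10.13 in wild type and 9.98, 9.90 and 9.93 in knockout (-0.17), and Pdpr, which regulates the pyruvate dehydrogenase phosphatase, read 8.70, 8.72 and 8.86 against 8.23, 8.59 and 8.41 (-0.35). Neither overlapped between the groups. The phosphatase Pdp2 differed by -0.46 with values of 3.56 to 4.74. The pentose phosphate route, which draws on glucose 6-phosphate, had 6 of 11 lower, 4 higher and a median of -0.05. In it H6pd read 6.21, 5.32 and 5.72 against 4.35, 5.42 and 3.87 (-1.20), Prps2, which makes phosphoribosyl pyrophosphate, differed by -0.51 (limma adjusted p = 0.634, and 0.0437 without wild-type array 3) and Tkt, transketolase, by -0.30. H6pd overlapped between the groups at knockout array 2.

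The branch to serine and glycerol phosphate had 4 of 7 lower, with Gpd2 of the glycerol phosphate shuttle at -0.61, Psph at -0.18 and Shmt1 at -0.26. Gluconeogenesis had 4 of 6 lower, and G6pc3 (-0.40) and Pcx (-0.29), its members with the smallest p, were low on every array, while Pck2 differed by -0.33. Fbp1, picked after its values were seen, read 8.51, 8.61 and 5.32 in wild type and 8.52, 4.80 and 9.72 in knockout, a spread within each group that exceeds the difference of 0.20. Other transporters and tissue forms of glycolytic enzymes had 7 of 13 tested genes lower and a median of -0.05, and 18 of 22 were low on every array. The named ones were Pgk2 (0.32) and Slc2a6 (0.30), both low, and Pgm2 (-0.47).

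Known regulators and hypoxia targets were counted in the same way. Of 12 hypoxia targets tested, 7 were lower and 5 higher, with a median of -0.04. Egln1, an oxygen sensor that marks hypoxia-inducible factor for destruction, read 8.33, 8.31 and 8.34 in wild type and 7.52, 7.83 and 7.85 in knockout, with no overlap (-0.59, limma adjusted p = 0.629). Egln3 differed by -0.65 with overlapping groups, and Bnip3, low on every array, by 0.43. Of 10 regulators tested, 7 were lower with a median of -0.18, and those with the smallest p were the kinase genes Mtor (-0.37) and Akt1 (-0.35) and Mlxip (-0.50), which encodes a glucose-sensing transcription factor. The largest lower difference among the regulators was that of Txnip (-0.72, adjusted p = 0.690 in limma), an inhibitor of glucose uptake picked after its values were seen. Txnip read 9.53, 9.40 and 8.90 in wild type and 9.11, 9.12 and 7.45 in knockout. Only knockout array 3 lay below the wild-type range, and the other knockout arrays lay inside it. Myc and Hif1a, picked after their values were seen, differed by 0.11 and -0.15, and for both the groups overlapped.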

How the data were processed

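Gene expression was measured on 6 one-colour arrays with 45101 probe sets each. The authors deposited log2 signals made with GCRMA, per the submitters' processing notes, with no version or settings named there. Base 2 was inferred from how far the values reach. GCRMA pulls weak signals together, so differences near 2 are compressed, and amplification of small RNA amounts can distort differences. Array medians were 2.26 to 2.36, and the number of arrays limits the precision.

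Of the probe sets, 34958 named 1 gene, 932 several and 9211 none. Symbols were updated through RefSeq (GRCm38.p6, 34754 probe sets matched). Each gene was read from its single-symbol probe set of highest mean, and those whose mean exceeded the 40th percentile of probe set means were tested with limma 3.58.1 (R 4.3.3; lmFit, eBayes with intensity trend), two-sided, Benjamini-Hochberg over all genes, threshold 0.05. Genes were called low or clearly read from fixed signal limits, and differences were counted over genes of mean at least 5, so that no gene was lost for being low in 1 group. The fit was tested on simulated data. The genes of the set and all lists were chosen with earlier results of these data known. Named are all genes of the set and, per list, up to 3 with the smallest p. Also named, after their values were seen, are Mdh1 and Sucla2, the citric acid cycle genes that were higher, and Fbp1, Txnip, Myc and Hif1a. Cell markers are named beside their values. Same-numbered arrays did not deviate together (correlations -0.038, -0.049 and -0.051). Alternatives were the filter, normalization, prior, array weights, replicate block, probe set rule, averaged near-identical arrays, threshold and each array left out.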

Additional observations from a re-analysis of the deposited data

How the results depend on the processing

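No gene of the set passed the threshold under any of the alternatives run, and 18 of the 30 tested genes kept their direction under all of them. Over all genes, 1 passed with array weights, and 0 to 51 with 1 array left out: 51 without wild-type array 3 (20 higher, 31 lower), 3 without knockout array 1 and 1 without knockout array 3. The number of genes of the set with a lower mean was 18 to 22 of 30 with 1 array left out, where all genes gave 51.4% to 53%. It was 43 of 63 when probe sets were the unit (54.7% of all probe sets tested). The median of the set was -0.23 to -0.046 with 1 array left out. Under quantile normalization that median was -0.11 beside 0.03 for all genes, and under median centring -0.23 beside -0.06. The count with groups that do not overlap, beside the share of all features in the same setting, was 1 with the filter at the 60th percentile (14.6%), 1 with quantile normalization (12.9%), 5 with median centring (14.3%), 6 with the mean of probe sets (14.2%), 4 with wild-type arrays 1 and 2 averaged (20.5%) and 8 of 63 with probe sets as the unit (13.6%). With 1 array left out it was 3 to 13 of 30, where all genes gave 18.4% to 28.3%; the 13 came without knockout array 3 (25.4%). The replicate number as a block left 0 genes past the threshold (smallest adjusted p 0.367) and 19 of 30 lower; the numbers do not show a pairing of the arrays.

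The direction turned for 12 genes of the set, among them Ldhb, which has the largest difference of all. With the mean of probe sets, Slc2a1 was -0.15, Slc2a3 -0.0175, Pcx 0.0053 and Hk1 minus Hk2 -0.12. With wild-type arrays 1 and 2 averaged, Slc2a1 was -0.0325, Slc2a3 -0.072, Pdk3 -0.097 and Dld -0.023. Quantile normalization gave Slc16a3 -0.027 and Tpi1 0.0092, and median centring Slc16a3 -0.023 and Pdk3 -0.02. Array weights gave Tpi1 0.018, Hif1a 0.031 and Fbp1 -1.01. With 1 array left out, the within-array differences ranged from -0.19 to 0.50 for Hk1 minus Hk2, -2.04 to 0.33 for Ldha minus Ldhb, -0.65 to -0.15 for Pdk1 minus Pdk3 and -0.17 to 0.25 for Slc2a1 minus Slc2a3. Log2 fold changes that turned with 1 array left out ranged from -0.085 to 0.325 for Slc2a1, -0.23 to 0.473 for Slc2a3, -0.013 to 0.067 for Slc16a3, -0.367 to 0.018 for Pfkl, -0.455 to 0.005 for Pfkm, -0.19 to 0.173 for Pfkfb3, -0.327 to 0.203 for Tpi1, -0.04 to 0.43 for Pgam2, -0.46 to 1.71 for Ldhb, -0.247 to 0.263 for Pdk3, -0.512 to 0.048 for Dlat, -0.033 to 0.177 for Dld, -0.023 to 0.207 for Myc, -0.287 to 0.083 for Hif1a and -0.88 to 1.64 for Fbp1. The cause of these turns was not tested.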
